A study of Mus musculus with 16 samples.

Results

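The genes described here encode the subunits, activators, inhibitor and assembly factors of the proteasome. They were chosen by symbol, as every name in the embryo and islet expression tables that starts with Psma, Psmb, Psmc, Psmd, Psme, Psmf or Psmg followed by a digit, with pseudogenes to be left out. The rule found 50 genes, and none of them is annotated as a pseudogene in RefSeq. The embryo tables held 23966 usable symbols and 24486 entries stood in those of the islets. Of the 50, 48 are proteasome genes proper. The others are Psmc3ip and Psme2b. Psmc3ip is a cofactor of meiotic recombination named after the ATPase Psmc3, and Psme2b is a near-identical copy of the activator gene Psme2. Both were kept because the rule names them, and neither is read as a subunit. Counts over the genes of the rule include Psmc3ip wherever it passed the filter, which it did in every comparison.

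The proteasome is the barrel-shaped protease that degrades ubiquitin-tagged proteins in the cytosol and nucleus. Its 20S core stacks rings of alpha subunits around rings of beta subunits, of which the constitutive catalytic ones (Psmb5, Psmb6 and Psmb7) can be replaced by interferon-induced counterparts (Psmb8, Psmb9 and Psmb10) to form the immunoproteasome, which favours peptides for antigen presentation. The 19S particle caps the core: its base unfolds substrates with a ring of ATPases (Psmc genes), and its lid removes ubiquitin. PA28 (Psme1, Psme2, Psme3) and PA200 (Psme4) are alternative caps, Psmf1 encodes the inhibitor PI31, and the Psmg genes with Psmd5, Psmd9 and Psmd10 encode assembly chaperones.

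The study asked whether small RNA of sperm carries an effect of the father's diet. RNA of 30-40 nt was taken from sperm of C57BL/6J males on a high-fat diet (HFD; diet D12492) or a normal diet (ND) and injected at 2 ng per µl into zygotes of ICR background. Embryos were collected at the 8-cell stage about 56 h later and as late blastocysts about 75 h later, with 5 embryos pooled per library and 1 library per stage and injection. Islets of Langerhans came from F1 offspring of zygotes injected with ND or HFD sperm RNA, after 6 h of fasting, with 3 libraries per group. "HFD" and "ND" name the diet of the sperm donor throughout, so all 10 libraries used here come from injected zygotes, and libraries of uninjected or water-injected embryos were not analysed here. With 1 pool per embryo group, HFD and ND embryos differ by 1 pool each. The labels do not say that the islet libraries came from separate animals, so the islet p-values measure only the spread between these samples.

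The values are FPKM, fragment counts scaled by transcript length and library size, as deposited. Read depth is not given in the tables; summed FPKM ran from 523583 to 702018 in the embryo libraries and from 730432 to 1032630 in the islet libraries. In islets all 10 beta cell markers reached 1 FPKM in at least 1 library, but acinar genes were also abundant, with summed levels of 160562 to 221819 FPKM in the ND libraries and 71011 to 152176 FPKM in the HFD libraries. None of the 10 beta cell markers reached 1 FPKM in the embryos, whereas all 10 trophectoderm and all 7 inner cell mass markers did. The level of trophectoderm markers was 73.5 to 80.4 FPKM in sum at the 8-cell stage and 3629 to 3867 FPKM in blastocysts. These are bulk samples, in which fewer cells of a type and less RNA per cell cannot be told apart.

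Promoter stretches of 5 of the genes are shown because the results below turn on them: the immune subunits Psmb8 and Psmb9 and the activator Psme2, which differed most between stages or tissues, and, for contrast, the constitutive counterpart of Psmb8, Psmb5, and a lid subunit of the 19S particle, Psmd12. They are RefSeq sequences (GRCm38.p6), written 5′ to 3′ on the strand of the gene and ending 1 base before its annotated start. Psmb8 is chr17:34197945-34198194 on the plus strand, Psmb9 is chr17:34187331-34187555 on the minus strand, Psme2 is chr14:55591102-55591351 on the minus strand, Psmb5 is chr14:54617996-54618245 on the minus strand and Psmd12 is chr11:107479278-107479527 on the plus strand. Each is 250 bases long except that of Psmb9, which is the 225 bases between its start and that of the divergently transcribed peptide transporter gene Tap1. Capitals mark matches, on either strand, to 5 motifs: a gamma-activated site (TTCNNNGAA), an interferon-stimulated response element (GAAA on either side of any 2 bases), a CCAAT box, an ETS site and a GC box.
Psmb8: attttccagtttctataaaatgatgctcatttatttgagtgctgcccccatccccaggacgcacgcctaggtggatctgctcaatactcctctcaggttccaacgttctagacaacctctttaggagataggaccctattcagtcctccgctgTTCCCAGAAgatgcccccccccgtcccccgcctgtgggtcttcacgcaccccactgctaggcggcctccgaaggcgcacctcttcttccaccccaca
Psmb9: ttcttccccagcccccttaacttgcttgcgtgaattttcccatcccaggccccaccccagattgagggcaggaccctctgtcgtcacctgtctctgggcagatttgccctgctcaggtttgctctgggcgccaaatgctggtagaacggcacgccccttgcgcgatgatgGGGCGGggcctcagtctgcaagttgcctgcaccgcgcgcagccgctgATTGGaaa
Psme2: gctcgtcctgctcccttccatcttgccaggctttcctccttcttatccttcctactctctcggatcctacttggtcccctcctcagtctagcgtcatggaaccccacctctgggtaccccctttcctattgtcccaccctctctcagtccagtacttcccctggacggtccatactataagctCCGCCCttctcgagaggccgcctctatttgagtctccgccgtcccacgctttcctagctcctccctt
Psmb5: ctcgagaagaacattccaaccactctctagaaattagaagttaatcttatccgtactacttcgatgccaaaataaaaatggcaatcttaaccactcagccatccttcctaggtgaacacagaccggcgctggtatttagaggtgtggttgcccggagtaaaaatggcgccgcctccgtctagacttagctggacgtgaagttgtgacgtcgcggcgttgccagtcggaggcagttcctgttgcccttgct
Psmd12: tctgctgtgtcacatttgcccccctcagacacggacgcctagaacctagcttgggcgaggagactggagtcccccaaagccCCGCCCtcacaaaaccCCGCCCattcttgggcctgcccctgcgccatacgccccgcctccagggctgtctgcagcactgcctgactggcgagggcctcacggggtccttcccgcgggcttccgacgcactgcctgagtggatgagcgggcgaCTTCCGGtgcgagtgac

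The Psmb8 stretch held 1 match, a gamma-activated site spelled TTCCCAGAA, 97 to 89 bases before the start. The Psmb9 stretch held a GC box and a CCAAT box, the Psme2 stretch a GC box, the Psmb5 stretch none of these motifs, and the Psmd12 stretch an ETS site 17 to 11 bases before the start and 2 GC boxes. The search covered the 250 bases before the starts of the 42 proteasome genes in the table. The ETS letters (CCGGAAG) were found in 13 of these 42 genes (31.0%) and in 7.83% of all 27025 symbols. The 13 included Psmc1, Psmc2, Psmc6, Psmd2, Psmd4, Psmd6, Psmd11 and Psmd12 of the 19S particle. The GC box (GGGCGG) was found in 22 of 42 genes (52.4%, against 35.4% of all symbols), the CCAAT box in 15 (35.7%, against 37.5%), the gamma-activated site in 2, Psmb8 and Psmg1 (4.76%, against 8.13%), and the interferon-stimulated response element in 3, Psmb3, Psmd4 and Psmd9 (7.14%, against 3.46%). The marked matches do not overlap one another. The motifs were chosen after the expression values were known, and a match is a description of these letters only.

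Nearly all subunits of the core and the 19S particle were among the more abundant transcripts in every library. The 14 core subunits, which are the 7 alpha subunits, 4 structural beta subunits and 3 constitutive catalytic beta subunits, had a median of 558 FPKM in the 8-cell ND pool and 410 FPKM in the 8-cell HFD pool. It was 719 FPKM in the blastocyst ND pool and 562 FPKM in the blastocyst HFD pool. In islets the median was 25.0 to 31.9 FPKM in the ND libraries and 34.3 to 40.1 FPKM in the HFD libraries. As a rank within each library among entries of at least 1 FPKM, the core median stood at percentile 97.2 to 97.9 in embryos. It stood at 90.1 to 92.7 in islets. Together the 50 genes took 1.72% to 2.71% of the summed FPKM in embryos and 0.0915% to 0.127% in islets, where Ins2 and acinar transcripts take up much of the total. Embryo and islet tables were made from different kinds of library and normalized separately, so these levels are set side by side with no test.

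**Figure D1:**
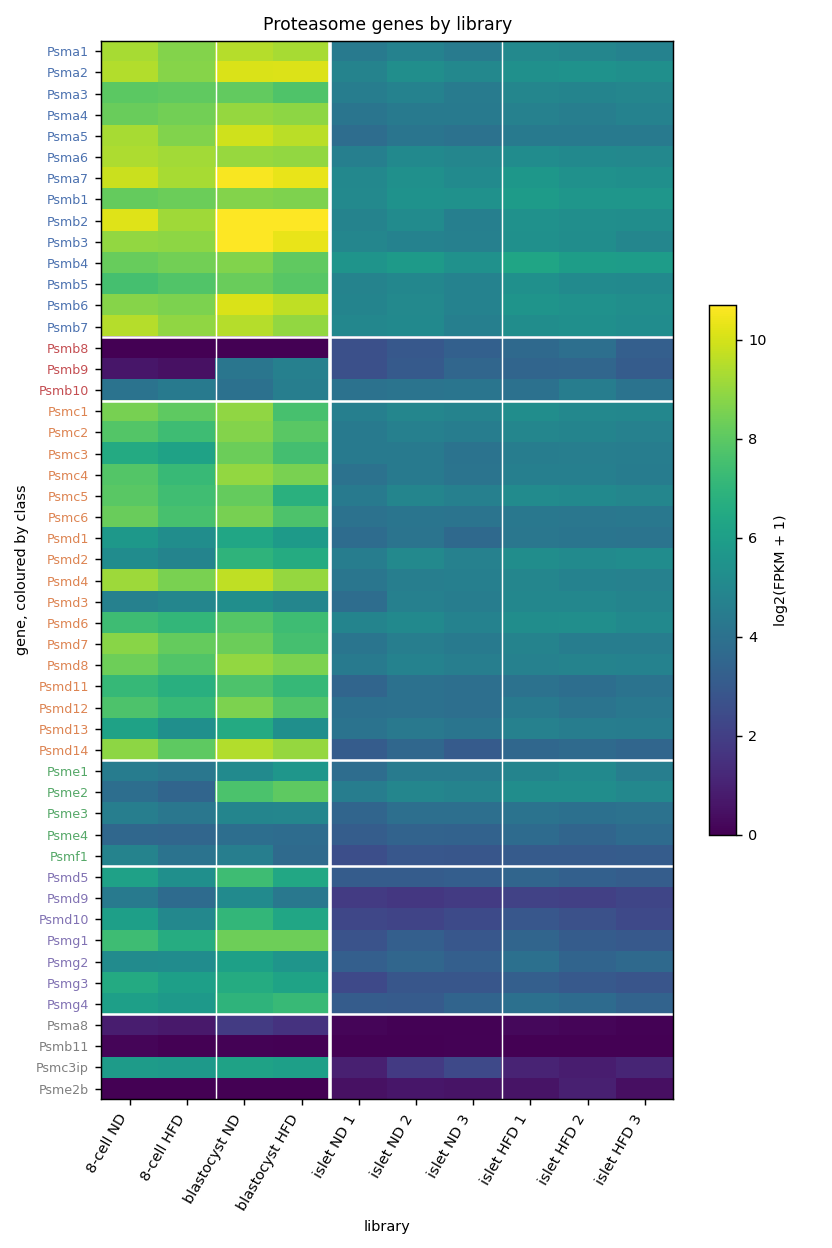
Level of each of the 50 genes (rows, coloured by class: 20S core blue, immune catalytic beta red, 19S orange, activators and inhibitor green, assembly chaperones violet, other symbols of the rule grey) in each of the 10 libraries (columns), as log2(FPKM + 1). Psmb8 is at 0 in all 4 embryo libraries, and Psmb9 and Psme2 are far higher in both blastocyst pools than in both 8-cell pools.

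The most abundant core subunit was not the same gene in each tissue. Psmb2, a structural beta subunit, led the core in the 8-cell ND pool (1136 FPKM) and in both blastocyst pools (1647 and 1652 FPKM), and the alpha subunit Psma7 led it in the 8-cell HFD pool (632 FPKM). In all 6 islet libraries the highest was Psmb4, another structural beta subunit, at 41.9 to 76.8 FPKM, and the lowest was the alpha subunit Psma5, at 13.3 to 20.5 FPKM. The core subunits lie closer together in islets, where the highest was 2.69 to 3.75 times the lowest, than in blastocysts, where it was 5.94 and 7.83 times. The 8-cell pools spanned 6.19 times (ND) and 2.87 times (HFD), so the HFD pool at this stage lay within the range of the islets. Across the 14 core subunits the order of mean levels had a Spearman rho of 0.75 between 8-cell embryos and blastocysts, 0.04 between 8-cell embryos and islets and 0.10 between blastocysts and islets. Over the 45 genes measured in all 3, rho was 0.93, 0.58 and 0.60 in the same order. These are correlations over genes within the same libraries, and the embryo values share a library method.

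Relative to the core, the class medians of the ATPases, the lid, the activators and the inhibitor were lower in embryos than in islets, while single 19S subunits such as Psmd4 and Psmd14 were higher. The 6 base ATPases had a median of 0.401 of the core median in 8-cell embryos, 0.478 in blastocysts and 0.700 in islets. The 8 lid subunits stood at 0.329, 0.350 and 0.650. Within the 19S particle the embryo levels were uneven. Psmd4, a ubiquitin receptor, averaged 467 FPKM at the 8-cell stage and 665 FPKM in blastocysts, and Psmd14, the deubiquitinase of the lid, averaged 368 and 609 FPKM, whereas Psmd3, a lid scaffold subunit, averaged 27.3 and 33.3 FPKM. In islets these 19S subunits were much more alike: the means of the 8 lid subunits ran from 9.89 FPKM (Psmd14) to 32.5 FPKM (Psmd6). Psmd14, which had the highest mean of these 8 at both embryo stages, was thus the lowest of them in islets. The 3 PA28 genes had a median of 0.0396 of the core median at the 8-cell stage, 0.0640 in blastocysts and 0.712 in islets. The PA200 gene Psme4 stood at 0.0216, 0.0205 and 0.317 of the core median, and the inhibitor gene Psmf1 at 0.0425, 0.0273 and 0.208. The assembly chaperones differed less between tissues in this measure than the activators did. The 4 core chaperone genes had a median of 0.137, 0.170 and 0.276, and the 3 base chaperone genes of 0.0957, 0.168 and 0.143. The 2 tissue-restricted core genes, Psma8, known from the testis, and Psmb11, known from the thymus, stayed at or under 2.67 FPKM and 0.10 FPKM in every library.

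The catalytic pairs separated the tissues most clearly. Psmb8, which replaces Psmb5 and carries the chymotrypsin-like activity of the immunoproteasome, was listed at 0 in all 4 embryo libraries and measured 5.09, 6.81 and 8.68 FPKM in the ND islet libraries and 11.6, 14.0 and 8.54 FPKM in the HFD islet libraries. Psmb5 itself measured 183 and 220 FPKM at the 8-cell stage (ND and HFD), 300 and 243 FPKM in blastocysts, 26.3, 29.6 and 25.5 FPKM in ND islets and 40.3, 33.4 and 32.9 FPKM in HFD islets. Psmb9, the counterpart of Psmb6, stood at 0.57 and 0.39 FPKM in the 8-cell ND and HFD pools, at 17.4 and 24.3 FPKM in the blastocyst pools, at 5.09, 7.12 and 10.6 FPKM in ND islets and at 10.3, 10.6 and 7.76 FPKM in HFD islets. Psmb9 was thus the only one of the 3 immune subunits that was near 0 in 8-cell embryos and present in blastocysts. Psmb10, the counterpart of Psmb7, was present at every stage and in narrow bounds: 15.6 and 20.2 FPKM at the 8-cell stage, 14.9 and 23.1 FPKM in blastocysts, 15.3, 16.5 and 16.6 FPKM in ND islets and 15.0, 22.4 and 15.9 FPKM in HFD islets. Psmb6 and Psmb7 exceeded their counterparts in all 10 libraries.

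**Figure D2:**
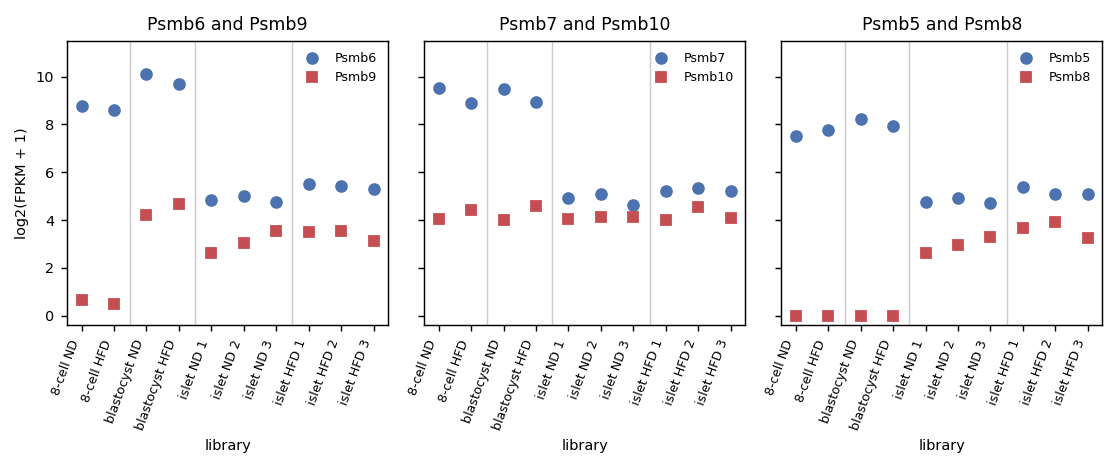
Each constitutive catalytic subunit (blue circles) and its immune counterpart (red squares) in the 10 libraries, as log2(FPKM + 1). The constitutive subunit is above its counterpart in every library, and the gap is smallest in islets.

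Because a share within 1 library does not depend on scaling between libraries, the immune share of catalytic beta FPKM, that is Psmb8, Psmb9 and Psmb10 over all 6 catalytic genes, was taken per library. It was 1.18% and 1.87% in the 8-cell ND and HFD pools and 1.50% and 2.95% in the blastocyst ND and HFD pools. In islets it was 23.3%, 24.5% and 32.4% in the ND libraries and 23.3%, 29.2% and 23.2% in the HFD libraries, so the groups overlapped (26.8% ± 4.93 for ND and 25.2% ± 3.44 for HFD, SD, n = 3). HFD minus ND was -1.53 percentage points with all 6 libraries and 1.30 percentage points without the third ND library, which had the highest share. Pair by pair, the islet difference was 4.08 percentage points for Psmb8, -2.44 for Psmb9 and -4.14 for Psmb10, and each pair's groups overlapped. Islet libraries also held immune cell transcripts, which summed to 59.3 to 138 FPKM in the ND libraries and 115 to 257 FPKM in the HFD libraries, with 12 of 14 markers at 1 FPKM or more in at least 1 library. The part of these cells in the islet levels of the immune subunits was not tested. In embryos the pan-leukocyte marker Ptprc was listed at 0 in all 4 libraries, and 9 of the 14 immune markers stayed under 1 FPKM.

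Most genes of the rule were higher in blastocysts than in 8-cell embryos, and the largest difference was that of an activator gene. Psme2, which encodes the beta subunit of PA28, measured 13.4 FPKM (ND) and 10.2 FPKM (HFD) in 8-cell embryos and 204 FPKM (ND) and 260 FPKM (HFD) in blastocysts. The groups did not overlap, and the difference was 4.18 on the log2(FPKM + 1) scale (SE 0.25, limma adjusted p = 0.000475). Psmb9, at the levels given above, differed by 3.87 (SE 0.31). It reached the filter of 1 FPKM only through the blastocyst pools, so its p-value in that set of genes is not given; among all genes without a filter its limma adjusted p was 0.00542. Psme1, which encodes the alpha subunit that forms the PA28 ring with Psme2, measured 21.6 and 17.9 FPKM in 8-cell embryos and 34.0 and 47.9 FPKM in blastocysts, a rise of 1.00 (SE 0.27, limma adjusted p = 0.0231). The ratio of Psme2 to Psme1 was 0.623 and 0.572 in the 8-cell pools, 5.99 and 5.43 in the blastocyst pools and 1.12 to 1.67 in islets. In the embryo tables the loci of 8 of the genes overlap another gene, among them Psme1 (Emc9), Psmb5 (Mir686), Psma3, Psma4 and Psmd1, and without strand the reads of an overlap cannot be told apart. The nuclear PA28 gene Psme3 did not pass the test (22.9 and 17.6 FPKM against 28.0 and 28.9 FPKM, adjusted p = 0.141), and neither did Psme4 (10.9 and 10.5 FPKM against 13.6 and 12.6 FPKM).

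Of the 47 genes of the rule that passed the filter of 1 FPKM in 2 of 4 embryo libraries, 21 were called higher in blastocysts and 0 lower at a limma adjusted p under 0.05. Over all 9603 genes tested, 48% were called, 31.9% higher and 16.1% lower. Psmb9 and Psma8 passed the filter through the blastocyst pools alone and so had to differ; without them 19 of 45 were called. The median difference was 0.60 on the log2 scale for the 47 and 0.30 for all genes. Both blastocyst pools were above both 8-cell pools for 30 of the 47, against 46.4% of all genes, and below them for 1, against 26.4%. The 30 include Psmb9 and Psma8, for which the filter fixed this order in advance. With 4 pools, a gene's own spread in this test comes only from how far the stage difference of the ND pools departs from that of the HFD pools. That is 1 residual degree of freedom, so the SE and p-values also rest on a prior variance taken from all genes. The 19S and core genes were called in similar shares: 7 of 17 and 6 of 14. Among ATPases Psmc3 (90.9 and 70.8 FPKM at the 8-cell stage, 308 and 177 FPKM in blastocysts) rose by 1.53 (SE 0.22), and Psmc4 and Psmc2 were also called. Psmd2, a base scaffold subunit that docks ubiquitin shuttle factors, rose by 1.74 (SE 0.21), from 36.2 and 27.1 FPKM to 122 and 93.4 FPKM. Psmd8, Psmd12 and Psmd14 of the lid were called too, by 0.71 to 0.77.

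In the core the largest rise was that of Psmb3, a structural beta subunit, by 1.59 (SE 0.24), from 494 and 466 FPKM to 1606 and 1294 FPKM. Psmb6 rose by 1.21 (SE 0.23), from 435 and 386 FPKM to 1098 and 819 FPKM, while the other constitutive catalytic genes did not pass: the difference was 0.43 for Psmb5 (SE 0.24) and 0.02 for Psmb7 (SE 0.23). Psmb10 likewise stayed at 0.06 (SE 0.24). Psma2, Psma5 and Psma7 of the alpha ring were called, and Psma6 was the only one of the 47 with both blastocyst pools below both 8-cell pools (666 and 583 FPKM against 525 and 497 FPKM; -0.29, SE 0.23, adjusted p = 0.332). In the embryo tables its locus is merged with those of Nfkbia and Ppp2r3c, so its embryo values are uncertain. Among the chaperones, Psmg1, which guides assembly of the alpha ring, rose by 1.34 (SE 0.26), from 162 and 96.4 FPKM to 319 FPKM in both blastocyst pools. Psmg4, Psmd5 and Psmd10 rose by 1.17 to 1.19. Psma8 stayed low, at 0.81 and 0.64 FPKM against 2.67 and 1.97 FPKM. The lowest value was that of Psmd7, the lid partner of Psmd14, at -0.56 (SE 0.22, adjusted p = 0.0735).

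**Figure D3:**
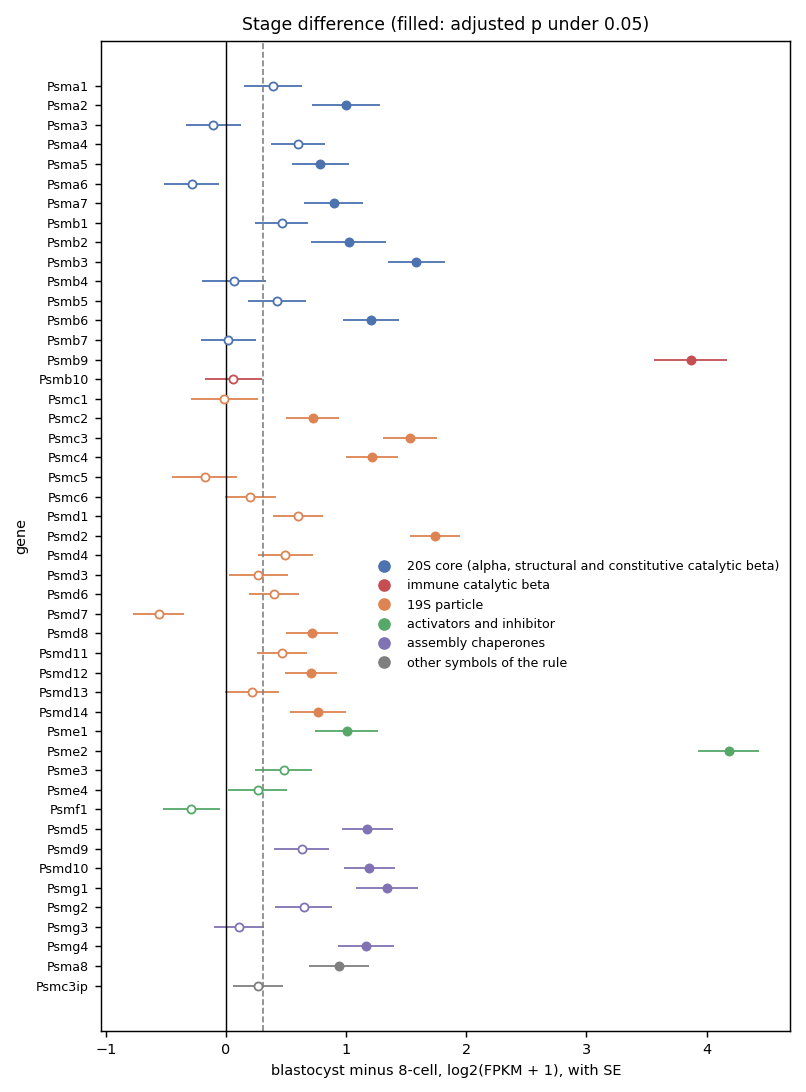
Blastocyst minus 8-cell difference of the 47 genes tested, on the log2(FPKM + 1) scale, with its standard error (limma, stage and injection, 4 pools). Filled points passed an adjusted p of 0.05 and the dashed line is the median of all genes, 0.30. Psme2 (4.18) and Psmb9 (3.87) stand apart from all other points, which lie between -0.56 and 1.74.

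The count depended on single pools and on scaling. Psmb9 and Psma8, which passed the filter through the blastocyst pools alone and so had to differ, were not taken out of the counts that follow. The genes called included Psmb9 without the 8-cell HFD pool. They included both Psmb9 and Psma8 without the 8-cell ND pool and after scaling. With each pool left out in turn, the genes called higher were 3 of 45 without the blastocyst ND pool, against 17.1% of all genes, and 8 of 45 without the blastocyst HFD pool, against 17.9%. They were 6 of 47 without the 8-cell HFD pool, against 24.3%, and 18 of 47 without the 8-cell ND pool, against 28.8%. Psme2, Psmb3 and Psmd2 were called in all 4 of these fits, Psmc3 and Psmb6 in all but the one without the blastocyst ND pool, and Psmg1 only in the one without the 8-cell ND pool. After the FPKM were divided by median ratio size factors, which moved the median of all genes from 0.30 to 0.08, 13 were called higher, against 26% of all genes, and 1 lower, Psmd7, against 22.3%. Psme2 (3.93) and Psmb9 (3.70) had the largest differences there too. Of the 7 genes measured from a list of 20 for interferon response and peptide loading, 5 were called higher and 0 lower. The shares of all genes were 31.9% and 16.1%. One of the 5, Tap1, which shares the start region of Psmb9, passed the filter through the blastocyst pools alone (0.23 and 0.23 FPKM against 3.00 and 2.33 FPKM), which leaves 4 of 6: Tapbp, B2m, H2-K1 and H2-D1. H2-K1 rose by 2.24 and H2-D1 by 1.89. After scaling 3 of the 7 were called higher and 2 lower, against 26% and 22.3% of all genes. In contrast, Irf1, a transcription factor of the interferon response, did not exceed 0.33 FPKM in any embryo library.

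The genes that feed the proteasome were not uniformly higher in blastocysts. Over all genes tested, 31.9% were called higher and 16.1% lower, and after scaling 26% and 22.3%. Of 6 ubiquitin and activating enzyme genes, 3 were called higher, among them the polyubiquitin gene Ubb (1307 and 931 FPKM against 7020 and 5208 FPKM, a rise of 2.45) and the activating enzyme gene Uba1, which rose by 1.67. The ribosomal fusion gene Rps27a differed by -0.06. Of 13 measured proteasome-associated factors and ubiquitin receptors, 2 were called higher, among them the ubiquitin shuttle factor Ubqln2 (1.53), and 1 lower, Zfand5 (-1.87). Of 8 genes for assembly and transcription of subunits, 3 were called higher: the maturation factor Pomp, the stress regulator Nfe2l2 and Stat3, the last of which passed the filter through the blastocyst pools alone. The CCAAT-binding subunit gene Nfyb was called lower by -1.99, and Nfe2l1, the regulator of proteasome recovery, differed by 0.10. Of 13 measured genes of the segregase p97 and its cofactors, 4 were called higher and 0 lower. After scaling the calls higher and lower were 3 and 1 for the ubiquitin list, 2 and 2 for the associated factors, 2 and 2 for assembly and transcription, and 2 and 0 for p97.

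In 8-cell embryos most of the genes were lower in the HFD pool than in the ND pool, as were most genes. Of 45 genes of the rule that averaged 10 FPKM or more over the pools of this stage, 37 were lower and 8 higher, with a median of -0.46 on the log2(FPKM + 1) scale, against -0.32 over all 3687 genes measured. With 1 pool per group there is no test, and a difference of at least 1 on the log2 scale served as the size rule. Only Psmd10, a chaperone of the base also known as gankyrin, passed it, at 64.4 FPKM (ND) and 30.9 FPKM (HFD), a difference of -1.03. It was 1 of 45, against 6.92% of all genes past 1 in either direction and 4.96% lower. The next largest were Psmb2 (1136 and 581 FPKM, -0.97) and the lid subunit Psmd13 (69.8 and 38.5 FPKM, -0.84). The largest positive differences were those of Psmb10 (15.6 and 20.2 FPKM, 0.35), Psmb5 (183 and 220 FPKM, 0.26) and Psmb4 (295 and 343 FPKM, 0.22).

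The classes did not move alike at the 8-cell stage. Of the 17 subunits of the 19S particle that the rule reaches, 16 were lower in the HFD pool and 15 lay below the median gene (-0.32). The share of all genes lower at either stage alone is not given here. The 14 core subunits had a median of -0.18, with 9 lower and 5 higher. After median ratio scaling 0 of the genes passed 1 (4.94% of all genes did), the median over the 45 was -0.23 against -0.10 for all genes, and the core median turned to 0.05 with 8 of 14 higher, while 16 of the 17 19S subunits stayed lower with a median of -0.26. So the direction of the core at this stage depended on the scaling. That of these 17 19S genes as a set did not under the alternatives tried, with 1 pool per group.

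In blastocysts the 19S subunits of the rule again stood lower in the HFD pool. All 17 were lower and all 17 lay below the median gene, with the deposited FPKM (median -0.70) and after scaling (median -0.55). Shfm1, a lid subunit that the rule does not reach, was higher in the HFD pool (ND 1157 FPKM, HFD 1349 FPKM). Psmc5, an ATPase of the base, measured 288 FPKM (ND) and 110 FPKM (HFD), a difference of -1.37. Psmc1, another ATPase, measured 485 and 190 FPKM, a difference of -1.35. Psmd13 measured 92.8 and 39.2 FPKM, a difference of -1.22. These 3 were the only ones of 46 genes of the rule past 1, against 6.19% of all 4134 genes in either direction and 4.91% lower, and all 3 stayed past 1 after scaling, against 4.83% of all genes. The least reduced 19S subunits were Psmd3 (37.4 and 29.1 FPKM) and Psmd2 (122 and 93.4 FPKM), at -0.35 and -0.39. The 3 base chaperones, which serve the assembly of the same ATPase ring, were all lower as well, from -0.78 (Psmd10) to -0.93 (Psmd5), and so was the inhibitor gene Psmf1 (22.9 and 12.1 FPKM, -0.87).

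The 14 core subunits had a median of -0.28 in blastocysts, with 12 lower and 2 higher, and all 3 constitutive catalytic genes were lower: Psmb7 (-0.54), Psmb6 (-0.42) and Psmb5 (-0.30). The immune subunits Psmb9 and Psmb10 and the PA28 genes were higher in the HFD pool, while Psmb8 was listed at 0 in both pools. Psmb10 measured 14.9 FPKM (ND) and 23.1 FPKM (HFD), a difference of 0.61, and Psmb9 17.4 and 24.3 FPKM, a difference of 0.46. Psme1 measured 34.0 and 47.9 FPKM (0.48), Psme2 204 and 260 FPKM (0.35) and Psme3 28.0 and 28.9 FPKM (0.05). None of these passed 1, and at the 8-cell stage all 3 PA28 genes were lower in the HFD pool (-0.26 to -0.36). H2-K1, a class I heavy chain gene of the peptide loading list, measured 13.6 and 53.0 FPKM and was the 1 of 3 measured genes of that list past 1 (1.89). Among all 46 genes 37 were lower and 9 higher, with a median of -0.40 against -0.18 for all genes, and after scaling the median was -0.25 against -0.05.

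Of the 45 genes of the rule measured at both stages, 30 were lower in the HFD pool at both and 1, Psmb10, was higher at both. Of all 3157 genes measured at both stages, 58.6% were lower at both. After scaling the count was 25 of 45, against 40.4% of all genes. The 2 comparisons share no library. The 30 include all 6 ATPases, all 3 non-ATPase base subunits, 7 of the 8 lid subunits and all 3 base chaperones, but 7 of the 14 core subunits. Among other genes of the system, those of p97 and its cofactors were lower in 7 of 7 measured genes at the 8-cell stage (median -0.44) and in 6 of 8 in blastocysts (median -0.67). Adrm1, a ubiquitin receptor of the 19S particle, measured 395 and 268 FPKM (ND and HFD) at the 8-cell stage and 429 and 251 FPKM in blastocysts. Shfm1, the smallest lid subunit, which the symbol rule does not reach, was higher in HFD instead, at 1224 and 1433 FPKM and at 1157 and 1349 FPKM. Ubiquitin and activating enzyme genes were higher in 2 of 5 at the 8-cell stage and 4 of 5 in blastocysts. Beside these differences, summed inner cell mass markers were lower in the HFD pools, at 121 and 67.9 FPKM at the 8-cell stage and 124 and 80.4 FPKM in blastocysts. The blastocyst sum was carried by Nanog (73.8 and 34.6 FPKM) and Pou5f1 (25.1 and 11.7 FPKM), and 4 of the 7 markers, Sox2, Klf4, Esrrb and Fgf4, were higher in the HFD blastocyst pool. Summed trophectoderm markers were 80.4 and 73.5 FPKM and then 3629 and 3867 FPKM. Their part in the result was not tested.

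**Figure D4:**
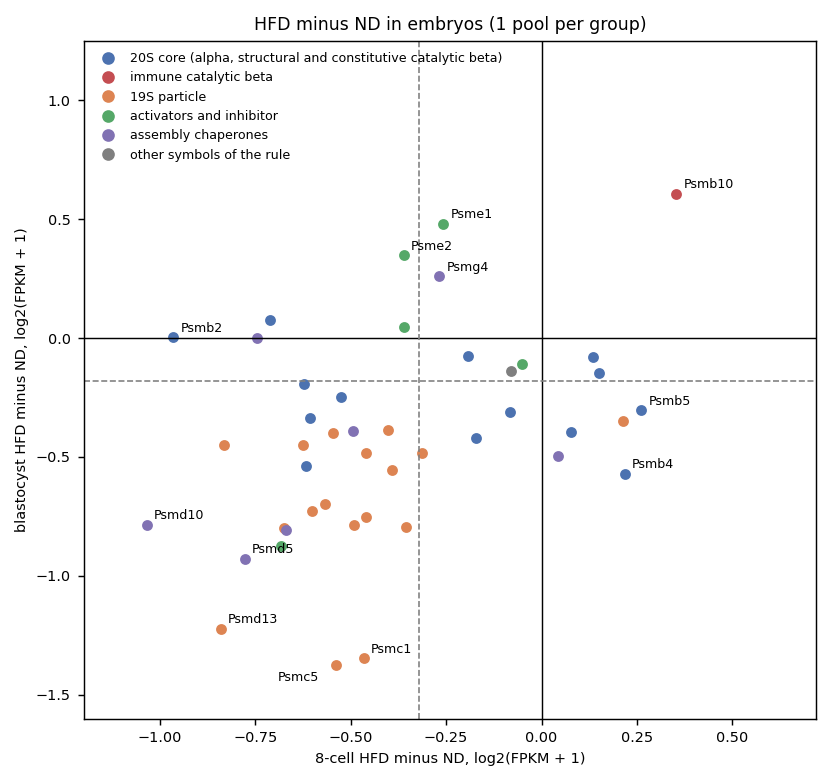
HFD minus ND difference on the log2(FPKM + 1) scale in 8-cell embryos (horizontal axis) and blastocysts (vertical axis) for the 45 genes measured at both stages, each point 1 gene from 1 pool per group. Dashed lines are the medians of all genes (-0.32 and -0.18). The 19S subunits (orange) all lie below the horizontal dashed line, and Psmb10 alone is above 0 on both axes.

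In offspring islets none of the genes passed the test between HFD and ND. Of the 47 genes tested, 0 were called at a limma adjusted p under 0.05, against 0.0511% of all 11737 genes (6 genes), and 19 had an unadjusted p under 0.05, against 30.5% of all genes. As deposited, 46 of the 47 were higher in HFD, with a median of 0.34 on the log2(FPKM + 1) scale, but 93.8% of all genes were higher and their median was 0.30. For 28 of the 47 all 3 HFD libraries were above all 3 ND libraries, against 41.5% of all genes, and for 0 they were all below, against 0.784%. After median ratio scaling the median over the 47 was 0.03 against 0.01 for all genes, with 28 higher and 19 lower. Then 0 genes had all HFD libraries above all ND libraries, against 8.3% of all genes, and 4 had them all below, against 8.58%: Psma6, Psmc6, Psme3 and Psmc3ip. The size factors were 0.744, 1.00 and 0.935 for the ND libraries and 1.18, 1.07 and 1.14 for the HFD libraries. Beside these, acinar genes were lower in HFD in 10 of 11 cases (median -0.86, 0 called), and beta cell markers summed to 288317 to 431345 FPKM in ND and 450966 to 694720 FPKM in HFD. Their part in the result was not tested.

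The genes with the lowest unadjusted p are given by library as a description. Psmb6 measured 27.6, 31.4 and 25.7 FPKM in ND islets and 44.7, 41.4 and 38.1 FPKM in HFD islets. The groups did not overlap, and the difference was 0.54 (SE 0.16, limma adjusted p = 0.115), or 0.20 (SE 0.13) after scaling. Psmb8, given by library above, differed by 0.66 (SE 0.21, limma adjusted p = 0.12), with its lowest HFD library just under its highest ND library, or by 0.35 (SE 0.19) after scaling. This was the largest positive difference of the 47 on either scale. Without the third ND library, in which Psmb8 was highest of the ND libraries, the difference was 0.82 (limma adjusted p = 0.0413). That fit called 373 of all 11648 genes tested, against 6 of 11737 with all libraries. Without the first ND library the Psmb8 difference was 0.49 (limma adjusted p = 0.258). With each of the other libraries left out it was 0.51 to 0.83, not past the test. Psme1 measured 13.3, 20.7 and 20.7 FPKM in ND and 27.4, 32.5 and 22.6 FPKM in HFD, a difference of 0.58 (SE 0.21, limma adjusted p = 0.127). Psmd3 measured 13.1, 24.3 and 22.3 FPKM in ND and 30.3, 29.9 and 27.5 FPKM in HFD (0.57, SE 0.21). Psmg4, an assembly chaperone of the alpha ring, measured 7.55, 7.33 and 9.95 FPKM in ND and 14.6, 12.3 and 9.68 FPKM in HFD (0.50, SE 0.19). The first ND library was the lowest of all 6 for Psme1 and Psmd3, and without it their differences were 0.38 and 0.31.

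The constitutive catalytic genes Psmb5 and Psmb7 differed by 0.37 each (SE 0.17), Psmb9 by 0.33 (SE 0.22) and Psmb10 by 0.11 (SE 0.18), none past the test. Psmb10 turned to -0.21 (SE 0.18) after scaling and to -0.06 without the second HFD library, and was 0.22 without the first HFD library. Psmb9 was 0.11 without the first ND library and 0.57 without the third. All 17 subunits of the 19S particle that the rule reaches were higher as deposited (median 0.31), and 6 of 17 were higher after scaling (median -0.02). As deposited, each of the 14 core subunits had its lowest level in ND library 1 or ND library 3 (7 each). For 11 of them the highest level was in HFD library 1. The size factors of ND libraries 1 and 3 were the lowest (0.744 and 0.935) and that of HFD library 1 the highest (1.18). After scaling, ND library 1 had the highest core median (5.20 on the log2(FPKM + 1) scale, against 5.13 in HFD library 1). ND library 3 kept the lowest (4.79). How many of all genes share these extreme libraries was not counted. The only gene lower in HFD as deposited was Psmc3ip, which is not a proteasome subunit. It measured 0.94, 2.53 and 4.16 FPKM in ND and 1.12, 0.80 and 1.17 FPKM in HFD, a difference of -0.70 (SE 0.28, limma adjusted p = 0.139), and its locus overlaps that of Mlx in the tables. Its first ND library lay within the HFD range, and the difference was -1.08 without that library and -0.37 without the third ND library.

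**Figure D5:**
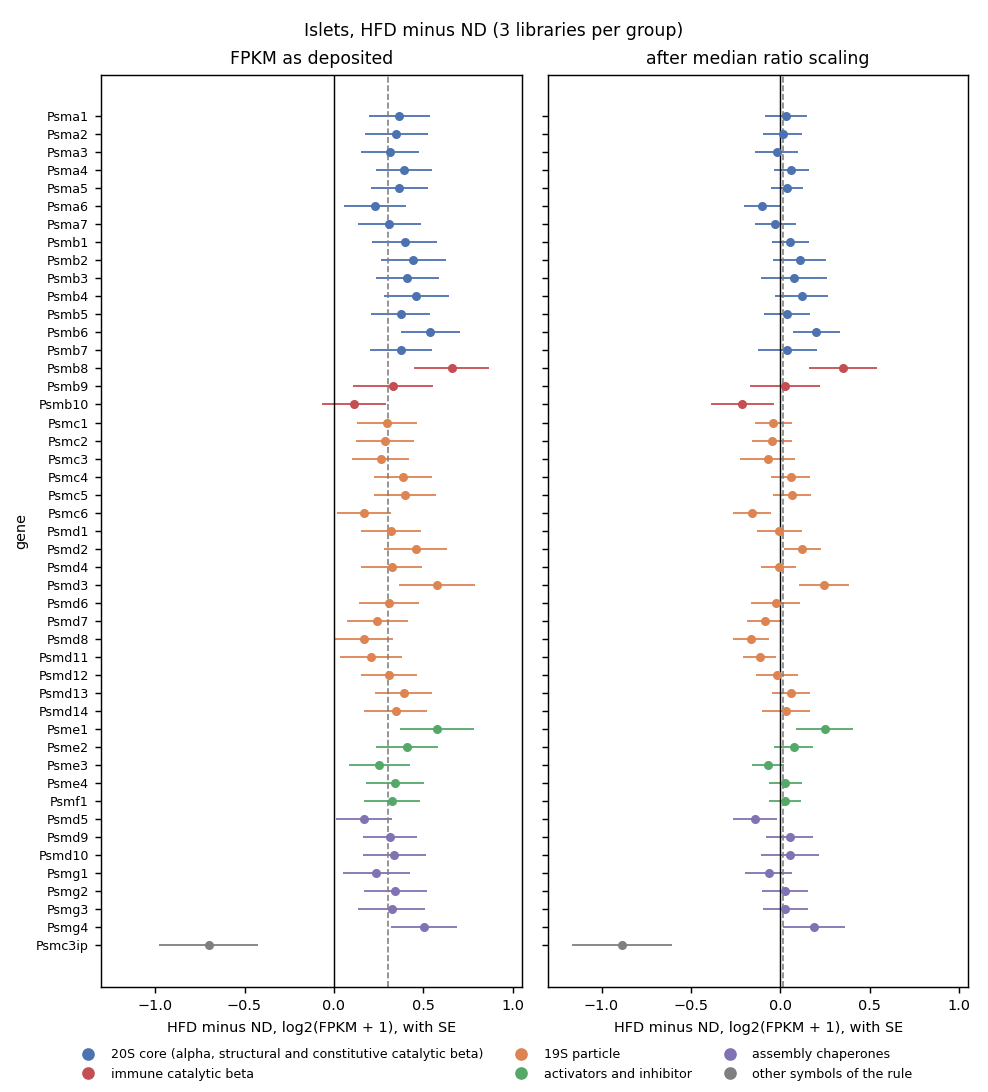
HFD minus ND difference in islets with its standard error (limma, 3 libraries per group) for the 47 genes tested, on the log2(FPKM + 1) scale. Left, FPKM as deposited; right, after median ratio scaling; dashed lines are the medians of all genes (0.30 and 0.01). On the left 46 of 47 points are above 0, and on the right they lie on both sides of it.

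Of the partner lists, 0 genes were called in islets in each, against 0.0511% of all genes. Over all genes tested, 93.8% were higher in HFD as deposited and 52.9% after scaling. Ubiquitin and activating enzyme genes were higher in 6 of 6 as deposited and in 0 of 6 after scaling. Proteasome-associated factors were higher in 12 of 14 and then in 6 of 14, assembly and transcription genes in 8 of 8 and then in 3 of 8, and p97 with its cofactors in 13 of 14 and then in 10 of 14. The interferon response and peptide loading genes were higher in 15 of 15 as deposited (median 0.51) and in 13 of 14 after scaling (median 0.20), beside the immune cell markers, which were higher in 10 of 10 and then in 9 of 10 (scaled median 0.54). Endothelial and stromal markers were likewise higher in 8 of 8 each on both scales, with scaled medians of 0.40 and 0.48. The part of these cell types in the result was not tested. B2m, the light chain of class I molecules, measured 70.9, 86.1 and 67.2 FPKM in ND and 125, 142 and 109 FPKM in HFD.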

How the data were processed

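Gene-level FPKM were taken as the authors deposited them (the unit stands in the file headers). TopHat2 2.0.8b and build mm10 are listed for embryo and islet libraries in the submitters' processing notes, and Cufflinks for embryos; further normalization by the authors is not given in the sources used here. Per the labels' protocols, embryo libraries were made with Smart-Seq2 from 5 pooled embryos and islet libraries with a stranded mRNA kit. The 4 sperm and 2 bisulfite libraries of the series were not used here.

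Embryo tables were joined by symbol, leaving out 10 genes with a failed status, and islet tables by symbol and locus. Genes reaching 1 FPKM in 3 of 6 islet libraries, or in 2 of 4 embryo libraries for the stage test, entered two-sided limma tests (limma 3.58.1, R 4.3.3) of log2(FPKM + 1), whose prior variance followed a trend with level. Calls needed a Benjamini-Hochberg adjusted p under 0.05 over all genes tested. The islet fit left 4 residual degrees of freedom and the stage fit, on stage and injection, 1. HFD and ND embryos were compared by the log2 ratio of FPKM + 1 where the mean of both pools was 10 FPKM or more. A fold on this scale understates the change of low genes. The fits were tested on simulated data. Alternatives were a pseudocount of 0.1 FPKM, other filters, median ratio scaling, other models and leaving out each library.

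The proteasome genes and all lists were chosen with earlier results of these data known. Genes given by library were the 3 catalytic pairs, up to 5 per direction with the lowest unadjusted p in islets, those past 1 in embryos (or the 3 largest per direction) and the 6 largest called stage differences; others named are examples of their class chosen after their values were seen. Promoter sequences are from RefSeq (GRCm38.p6), and the set of promoters used here held 42 of the 50 genes. Islet replicate numbers are shared by title alone. Deviations of same-numbered libraries correlated at -0.03 to 0.04, and at -0.01 to 0.06 after scaling. With 3 libraries per group this cannot decide whether the numbers pair the samples. Some genes of the partner lists are counted but not reported here by name.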

Additional observations from a re-analysis of the deposited data

Results flagged for a closer look

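Several of the genes named in the embryo comparisons had differences of opposite sign at the 2 stages, and those below are examples. Each difference is from 1 pool per group, and the difference between stages was not tested. Psmb4 was 0.22 higher in the HFD pool at the 8-cell stage and -0.57 in blastocysts on the log2(FPKM + 1) scale. Psmb5 gave 0.26 and then -0.30. Psme1 went the other way, with -0.26 at the 8-cell stage and 0.48 in blastocysts. Psme2 gave -0.36 and then 0.35, and Psmd3 gave 0.21 and then -0.35.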

How the results depend on the processing

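In islets the count of proteasome genes called was 0 with all libraries and 0 to 1 when each library was left out in turn. The 1 gene, without the third ND library, was Psmb8, in a fit that called 373 of all 11648 genes tested. The median difference over the genes (0.34) was 0.0263 after median ratio scaling and 0.0263 with scaling and the replicate block together, an alternative chosen after seeing the data. With the replicate block alone 1 gene was called, Psmc3ip (lower, limma adjusted p = 0.0133). Over all genes 590 were called in place of 6, and whether the numbers pair the samples is not known. For blastocysts against 8-cell embryos the count (21) was 12 with no filter and 3 to 18 when each pool was left out, and the median (0.60) was 0.33 after scaling and 0.36 to 0.83 when each pool was left out, a range in which the model of stage alone was used. Calls over all genes also fell with no filter, to 2519 higher of 16875 tested, against 3059 of 9603 with the filter. In 8-cell embryos the count past 1 fell from 1 to 0 and the median moved from -0.46 to -0.23 after scaling. In blastocysts the count stayed at 3 and the median moved from -0.40 to -0.25. The islet difference in immune share (-1.53 percentage points) was 4.08 for Psmb8 against its counterpart, and -3.52 to 1.30 when each library was left out. Depth is not given for any library, so the counting error of low values, such as Psmb8 at 0 in embryos, cannot be stated.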
